A study of Mus musculus with 6 samples.

Results

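The Hox genes of the a, b, c and d clusters encode homeodomain transcription factors that give cells of the embryo their position along the head-to-tail axis. The family was taken here as every probe set paired with a single gene symbol of the form Hoxa, Hoxb, Hoxc or Hoxd plus a number, with antisense genes left out. This gave 33 genes on 48 probe sets, out of 18193 named genes on 34945 probe sets. There were 9 genes of cluster a, 9 of cluster b, 7 of cluster c and 8 of cluster d.

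The arrays measured RNA from whole brains of C57BL/6 mice aged 6 postnatal days, after an intraperitoneal injection on postnatal day 2. Treated pups received testosterone propionate (TP), an esterified androgen, at 1 mg per mouse in sesame oil, and vehicle pups the oil alone (20 µL). Each of the 6 Affymetrix arrays carried RNA pooled from 6 mice, with 2 arrays of TP females, 2 of vehicle females, 1 of a TP male pool and 1 of a vehicle male pool. The second array of each female group is labelled a replica, with no word on whether its pool was separate, so p-values reflect array-to-array spread that may be technical.

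In each cluster the genes lie in the order in which they are used along the body. Low paralogue numbers (1 to 5) act from the hindbrain and neck downward, middle numbers in the trunk and the highest numbers in the lumbar, sacral and tail segments. Retinoic acid and Cdx factors switch the clusters on in the embryo, Polycomb and trithorax complexes keep them off or on, and Pbx, Meis and Pknox proteins bind DNA together with the Hox proteins. In the brain, Hox transcripts are known from the hindbrain and are largely absent from the midbrain and forebrain, and in the spinal cord they set motor neuron identity.

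The family was chosen by measured values: markers of hindbrain and spinal cord, Hox genes among them, had shown lower values with TP than with vehicle on these arrays. The differences between TP and vehicle are therefore given as a description, with no test. Values are deposited log2 expression values, on which a difference of 1 is a 2-fold change. A gene with more than 1 probe set is represented by its brightest, and genes whose mean lay below the 40th percentile of all genes (6.19) are called dim. In whole tissue, fewer cells of a type and less RNA per cell cannot be told apart.

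All 9 measured markers of neurons, glia and microglia in a fixed brain list were well above the dim limit, the lowest value on any array being 7.56. The male TP array stood apart in its sex-linked genes. Its value of 10.45 for Xist, the RNA behind X inactivation in females, lay between 5.29 in the male vehicle array and 12.61 to 12.83 in the 4 female arrays, while its Y-linked Eif2s3y (9.12) was close to the male vehicle value (9.16) and far from the females (2.84 to 3.09). The sex comparison of the Hox genes is given with and without this array. Counts of small p-values for sex in the marker lists below are given with it only. The male difference and the difference between TP effects cannot be formed without this array, and rest on it.

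Upstream sequence is shown for 4 of the 9 genes described singly below, those with AGGTCA, a half-site of retinoic acid receptors, in the 250 bases before the start, because retinoic acid is the classical inducer of the clusters. The RefSeq promoter table (GRCm38.p6), which covers 250 bases before to 50 after each start, holds a window for 19 of the 33 genes. The 250 bases before the start are printed 5′ to 3′ on the gene's strand, with capitals marking AGGTCA or its reverse complement.
Hoxd3, chr2:74711743-74711992 (+ strand): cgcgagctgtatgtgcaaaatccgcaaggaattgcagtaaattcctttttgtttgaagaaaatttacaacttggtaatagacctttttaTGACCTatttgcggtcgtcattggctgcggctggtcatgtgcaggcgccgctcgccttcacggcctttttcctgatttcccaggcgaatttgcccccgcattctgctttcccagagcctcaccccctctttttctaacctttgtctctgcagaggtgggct
Hoxb4, chr11:96318017-96318266 (+ strand): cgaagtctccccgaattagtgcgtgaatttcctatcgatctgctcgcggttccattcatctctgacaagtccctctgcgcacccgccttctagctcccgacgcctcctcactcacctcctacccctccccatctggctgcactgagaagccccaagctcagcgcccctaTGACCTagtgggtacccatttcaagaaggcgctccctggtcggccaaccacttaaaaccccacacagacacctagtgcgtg
Hoxc4, chr15:103034145-103034394 (+ strand): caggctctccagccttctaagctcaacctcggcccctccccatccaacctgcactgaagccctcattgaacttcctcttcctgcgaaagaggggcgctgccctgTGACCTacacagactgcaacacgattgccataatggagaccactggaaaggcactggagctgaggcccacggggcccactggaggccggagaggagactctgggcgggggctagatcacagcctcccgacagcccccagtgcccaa
Hoxd10, chr2:74691641-74691890 (+ strand): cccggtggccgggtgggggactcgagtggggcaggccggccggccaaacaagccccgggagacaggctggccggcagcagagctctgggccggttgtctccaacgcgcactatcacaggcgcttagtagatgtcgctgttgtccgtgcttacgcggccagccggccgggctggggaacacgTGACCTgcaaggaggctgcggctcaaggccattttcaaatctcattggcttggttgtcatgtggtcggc

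Counted from the start site, the match began at base -161 in Hoxd3, -81 in Hoxb4, -146 in Hoxc4 and -69 in Hoxd10. In Hoxa5 it began at base 42 after the start, and the Hoxa13 window held none. Hoxb3, Hoxb5 and Hoxc9 have no window in the promoter table and were not scanned. Counted on both strands, AGGTCA was found in 7 of the table's 24 windows of Hox genes (29.2%), measured here or not, against 16.3% of all 32851 windows. The paired element, AGGTCA repeated after 5 bases, was in 0 Hox windows and in 0.00913% of all.

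Of motifs tied to androgens, the receptor half-site AGAACA was in 2 Hox windows (8.33%) against 19% of all, and the full element (AGAACA, 3 bases, TGTTCT) was in 0 Hox windows against 0.00913% of all. TGATNNAT, which Pbx and Hox proteins bind together, was in 4 (16.7%) against 8.85%, and the Meis site TGACAG in 2 (8.33%) against 19.2%. CCAAT was in 15 (62.5%) against 37.4%, and TATAAA in 4 (16.7%) against 13.6%. These are matches of letters only, and no binding was measured.

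Most Hox values on whole-brain arrays were low. Only 5 genes were not dim, namely Hoxb3, Hoxc4, Hoxa5, Hoxb5 and Hoxc9, and 28 were dim. The limit fell between Hoxc9, with a mean of 6.30 over the 6 arrays, and Hoxa7, with 6.02. Of the 11 genes with paralogue numbers 3 to 6, 4 were not dim, against 0 of 4 genes numbered 1 or 2, 1 of 8 numbered 7 to 9, and 0 of 10 numbered 10 to 13. A dim value can be largely background, since the deposited values carry no detection call, and array minima were 2.11 to 2.20.

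Across the family, values in TP females were lower than in vehicle females by a median of 0.11 log2 units (median difference -0.11), and 27 of 33 differences were negative (81.8%), against a median of -0.024 and 59.2% negative over all genes. With each array centred on its median the Hox median in females was -0.073 with 23 negative, and after repeated quantile normalization it was -0.069 with 23 negative. Both TP arrays lay below both vehicle arrays for 16 of 33 Hox genes and above them for 2, where 24.7% of all genes lay below and 13.4% above. Of the 5 genes that were not dim, 5 lay below and 0 above, where 24.3% and 15.2% of such genes did. As this contrast chose the family, nothing is read from these shares.

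In the male pair the median Hox difference was -0.12, and 25 of 33 were negative, against -0.034 and 59.6% over all genes. The TP array was lower by at least 0.32 log2 units for 10 Hox genes, 4 of them not dim, and higher by that much for 0. Of all genes 4.41% were lower and 2.42% higher by that much, and of genes that were not dim 1.61% and 1.86%. Nothing is read from these shares either. With each array centred on its median the male median was -0.061 with 21 negative, and after repeated quantile normalization -0.089 with 23 negative. The male TP array was the lowest of the 6 for 9 Hox genes, 4 of them not dim, where it was the lowest for 27.5% of all genes and 35.7% of those that were not dim.

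Over both sexes the median Hox difference was -0.14 (-0.091 with centring and -0.095 with repeated quantile normalization) and 28 were negative (25 under both of those settings), against -0.029 and 62.1% negative over all genes. All 3 TP arrays lay below all 3 vehicle arrays for 7 Hox genes, 2 of them not dim, where this held for 10.3% of all genes and 10.9% of those that were not dim. In this comparison the male pair counts for 1 of 3 arrays in each group, and without either male array it is the female difference alone.

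**Figure D1:**
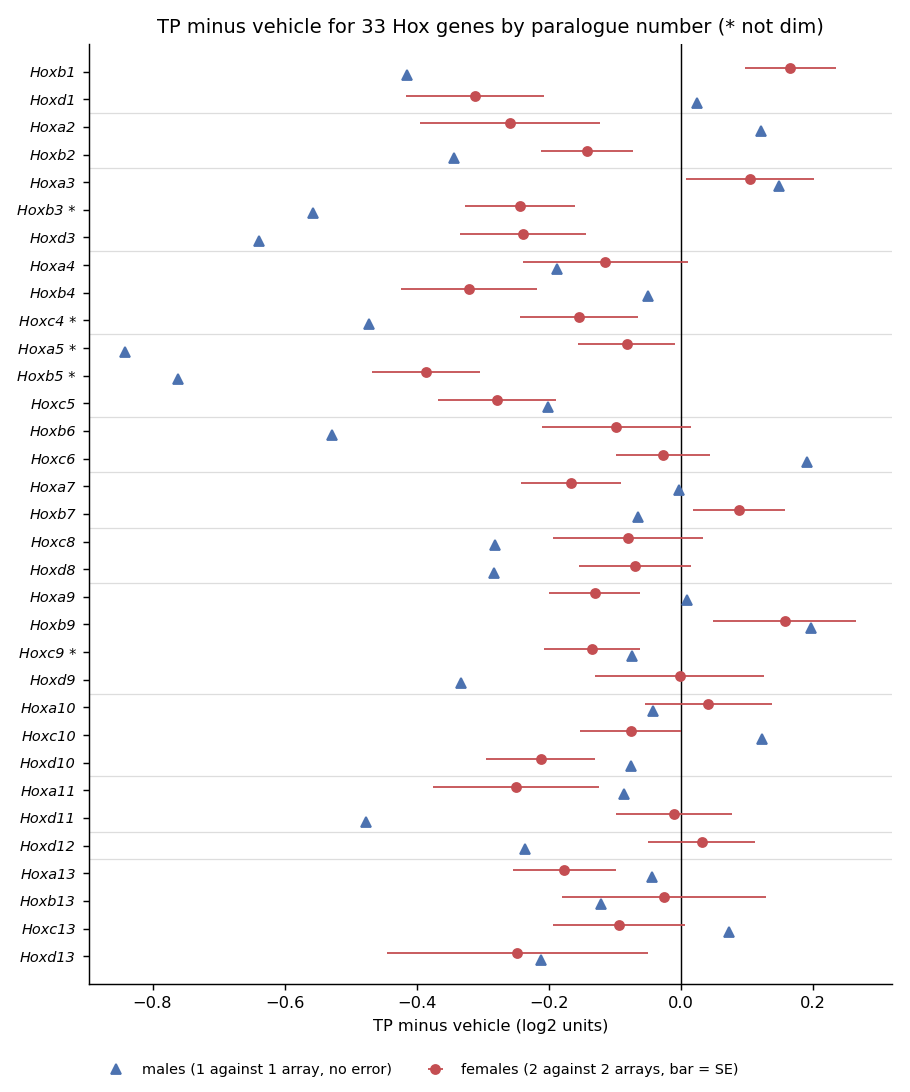
Difference between TP and vehicle in log2 units (x axis) for each of the 33 Hox genes, ordered by paralogue number from top to bottom. Circles are females (2 against 2 arrays, bar = SE), triangles are males (1 against 1, no error), and an asterisk marks the 5 genes that are not dim. Of the female points 27 lie left of 0, and the triangles farthest left, at -0.84 and -0.76, belong to Hoxa5 and Hoxb5.

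Hoxb3 belongs to the group 3 genes, which pattern the lower rhombomeres of the hindbrain. Its values were 6.61 and 6.75 in the vehicle females, 6.48 and 6.39 in the TP females, 6.44 in the vehicle male and 5.88 in the TP male. The TP value was the lower within each sex, but the male vehicle array lay inside the range of the TP females. The female difference was -0.24 (SE 0.083), from 6.68 ± 0.10 to 6.44 ± 0.07 (SD, n = 2 each), and the male difference was -0.56. A second, dim probe set gave -0.24 and -0.46. Its female groups overlapped, at 6.09 and 6.14 with vehicle and 6.12 and 5.64 with TP.

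Hoxd3, its dim partner in cluster d, which helps shape the uppermost neck vertebrae, stood at 5.53 and 5.74 in vehicle females, 5.35 and 5.45 in TP females, 5.73 in the vehicle male and 5.09 in the TP male. All vehicle arrays were above all TP arrays. The difference was -0.24 (SE 0.095) in females and -0.64 in males. Hoxa3, the remaining gene of the group, which is needed for thymus and parathyroid, is named after its values were seen. It had positive differences of 0.10 (SE 0.097) in females and 0.15 in males, and its 4 dim probe sets differed in sign.

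Among group 4 genes, expressed up to the lower medulla, Hoxc4 was not dim. Hoxc4 read 7.28 and 7.08 in vehicle females, 7.04 and 7.01 in TP females, 7.20 in the vehicle male and 6.72 in the TP male. All vehicle arrays were above all TP arrays, though the nearest, at 7.08 and 7.04, were close. The female difference was -0.15 (SE 0.089) and the male difference -0.47.

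Hoxb4, a dim gene also known from blood stem cells, read 4.94 and 5.15 in vehicle females, 4.64 and 4.81 in TP females, 4.93 in the vehicle male and 4.88 in the TP male. The groups did not overlap, but the male arrays lay close together. The female difference was -0.32 (SE 0.10), and the male difference of -0.0495 turned to 0.010 with centring and 0.013 with repeated quantile normalization. A second, dimmer probe set gave -0.14 in females and -0.25 in males.

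Hoxa5, needed for the phrenic motor neurons of the neck cord and for lung development, had the largest male difference of the family. Its values were 8.39 and 8.47 in vehicle females, 8.33 and 8.36 in TP females, 8.30 in the vehicle male and 7.46 in the TP male. The other 5 arrays lay between 8.30 and 8.47 and the male TP array far below them. The female difference was -0.082 (SE 0.073). The male difference was -0.84, the vehicle value being 1.79-fold the TP value. Over both sexes it was -0.34, which is -0.082 without the male TP array.

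The probe sets of Hoxa5 disagreed on the size in males. The other one, whose probes can match more than 1 gene, was not dim and read 7.65 and 7.73 in vehicle females, 7.66 and 7.59 in TP females, 7.60 in the vehicle male and 7.40 in the TP male. It gave -0.067 in females and -0.21 in males, and the mean of both probe sets gave -0.52 in males. The male TP array was again the lowest of the 6.

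Hoxb5, which acts in neural crest cells that form gut neurons, gave the largest female difference of the family. It read 7.25 and 7.34 in vehicle females, 6.85 and 6.97 in TP females, 7.10 in the vehicle male and 6.34 in the TP male. The order was the same in both sexes, with all vehicle arrays above all TP arrays. The female difference was -0.39 (SE 0.081), from 7.30 ± 0.06 to 6.91 ± 0.09 (SD, n = 2 each), the male difference -0.76, and that over both sexes -0.51 (SE 0.089). The vehicle values were 1.31-fold the TP values in females and 1.69-fold in males.

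Hoxc9, which keeps limb motor neuron genes off in the thoracic cord, was the only gene of groups 7 to 13 that was not dim. It read 6.29 in both vehicle females, 6.20 and 6.11 in TP females, 6.49 in the vehicle male and 6.41 in the TP male. TP was the lower within each sex, and both male arrays were above all females. The difference was -0.13 (SE 0.073) in females and -0.075 in males. After repeated quantile normalization these were -0.084 and -0.0022.

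Of the dim genes with high paralogue numbers, Hoxd10, a gene of lumbar motor neurons, read 2.98 and 2.83 in vehicle females, 2.73 and 2.67 in TP females, 2.85 in the vehicle male and 2.77 in the TP male. Hoxa13, a gene of digits and genital tubercle, read 3.42 and 3.44, 3.19 and 3.32, and 3.46 and 3.42 in the same order. TP and vehicle arrays did not overlap for either gene, but the male pairs differed little and all values were near the array minima. The female differences were -0.21 (SE 0.083) and -0.18 (SE 0.078) and the male ones -0.076 and -0.044, the last of which was 0.016 with centring.

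**Figure D2:**
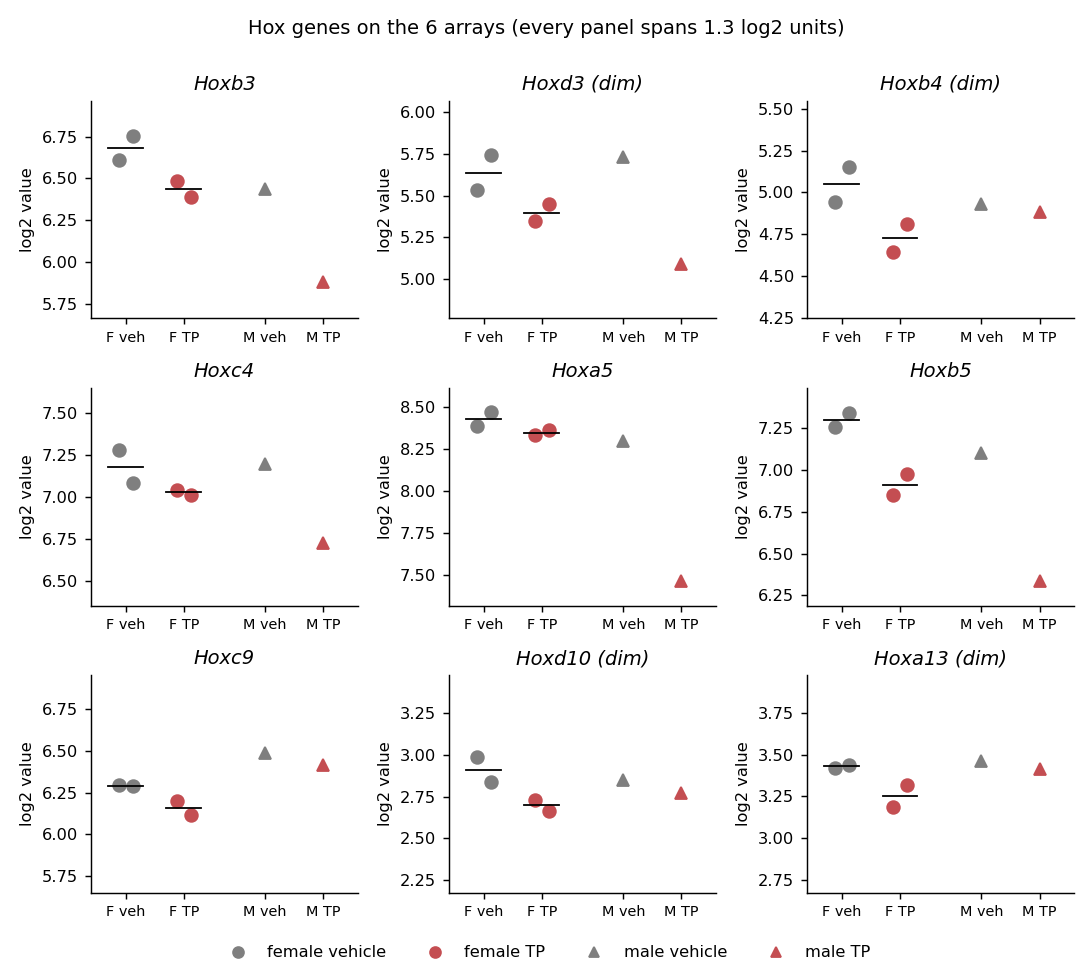
Log2 value on each of the 6 arrays (y axis, 1.3 log2 units in every panel) for the 9 Hox genes described singly, with 2 female vehicle, 2 female TP, 1 male vehicle and 1 male TP array from left to right. Lines are means of 2 female arrays. TP points lie below vehicle points of the same sex in each panel, and the male TP array lies far below the rest for Hoxa5 (7.46) and Hoxb5 (6.34). The dim genes were chosen because their TP and vehicle arrays did not overlap, so nothing is read from their order. Of all 33 genes, 16 had both female TP arrays below both vehicle arrays, and 25 were lower in the male pair.

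By paralogue number, genes 3 to 6 had a median of -0.15 in females (10 of 11 negative) and -0.47 in males (9 of 11 negative, 6 lower by at least 0.32). Genes numbered 1 and 2 had medians of -0.20 (3 of 4 negative) and -0.16 (2 of 4 negative). Numbers 7 to 9 had -0.075 (6 of 8 negative) and -0.070 (6 of 8), and numbers 10 to 13 had -0.085 (8 of 10) and -0.081 (8 of 10). Of the 10 genes lower by at least 0.32 in males, 8 were numbered 1 to 6 (Hoxb1, Hoxb2, Hoxb3, Hoxd3, Hoxc4, Hoxa5, Hoxb5 and Hoxb6), and the others were Hoxd9 and Hoxd11. Whether the groups of paralogues differ was not tested.

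By cluster, the female medians were -0.13 for a (7 of 9 negative), -0.098 for b (6 of 9), -0.094 for c (7 of 7) and -0.14 for d (7 of 8). In males they were -0.043 for a (6 of 9), -0.34 for b (8 of 9), -0.075 for c (4 of 7) and -0.26 for d (7 of 8). Cluster b held 5 of the 10 genes lower by at least 0.32 in males, cluster d 3, and clusters a and c 1 each.

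The remaining cluster b genes are named after their values were seen. Hoxb2, which acts in facial motor neurons, read 5.88 and 5.92 in vehicle females, 5.76 and 5.74 in TP females, 5.75 in the vehicle male and 5.41 in the TP male. Hoxb6, a trunk gene, read 6.08 and 5.85, 5.76 and 5.97, and 6.00 and 5.48 in the same order. The male TP array was the lowest of the 6 for both, and the female groups overlapped for Hoxb6 only. Hoxb7, Hoxb9 and Hoxb13 had female differences of 0.088, 0.16 and -0.026.

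In cluster c, also named after their values were seen, Hoxc5, of the neck cord, read 5.15 and 4.96 in vehicle females, 4.74 and 4.82 in TP females, 5.24 in the vehicle male and 5.04 in the TP male. The TP values were the lower within each sex. The difference was -0.28 (SE 0.089) in females and -0.20 in males on its brightest of 3 probe sets. Another gave 0.080 and 0.091, and the dimmest gave -0.14 and -0.54. Hoxc8, which acts at forelimb and trunk levels, had -0.080 in females and -0.28 in males, and Hoxc6, Hoxc10 and Hoxc13 had negative values in females and positive ones in males.

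In clusters a and d, Hoxa7, a trunk gene just below the dim limit, read 6.17 and 6.07 in vehicle females, 5.98 and 5.93 in TP females and 5.98 in both males. Here the female groups stood apart and the male arrays did not. Hoxd11 showed the opposite, with 3.38 and 3.20, then 3.25 and 3.31 in overlapping female groups, against 3.28 in the vehicle male and 2.80 in the TP male. Hoxd9, of the lower trunk and limbs, had -0.0019 in females and -0.33 in males.

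The direction depended on the probe set for several dim genes. Of the 11 genes with more than 1 probe set, all probe sets had the same sign in females for 6 and in males for 4. Hoxc6, chosen after its values were seen, gave 0.19, -0.38 and 0.61 in males on its 3 probe sets. Of the 48 probe sets, 5 have a suffix marking probes that can match several transcripts or genes.

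Replica arrays differed among themselves as well. Over the 33 genes the SD of the difference between both arrays of a group was 0.20 for vehicle females and 0.15 for TP females.

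The sexes were compared on all 6 arrays with limma, with treatment in the model, a contrast that did not choose the family. After Benjamini-Hochberg adjustment over all genes 0 of 33 Hox genes passed an adjusted p of 0.05 (smallest 0.25, for Hoxb3), while 8 (24.2%) had an unadjusted p under 0.05, against 14% of all genes. Only 3 genes of the whole array passed (0.0165%). The median male minus female difference of the Hox genes was 0.018, with 15 of 33 negative (45.5%), against -0.024 and 58.5% negative over all genes.

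Without the male TP array, 0 Hox genes passed again and 4 genes of the array did (0.022%). The smallest limma adjusted p of a Hox gene was then 0.42, for Hoxb1, and 1 (3.03%) had an unadjusted p under 0.05, against 8.21% of all genes. The median was 0.024 with 13 negative. Without that array the estimate is the male vehicle value minus the mean of the female vehicle values. Those vehicle values also enter the TP differences that chose the family, so nothing is read from these counts. The count of small unadjusted p-values was thus 8 with this array and 1 without it.

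Males were lower for Hoxa5 by 0.51 (difference -0.51, SE 0.15, limma adjusted p = 0.27), for Hoxb3 by 0.40 (difference -0.40, SE 0.088, adjusted p = 0.25) and for Hoxb5 by 0.39 (difference -0.39, SE 0.095, adjusted p = 0.261), none of which passed. Leaving out the male TP array made these -0.13, -0.25 and -0.20. Hoxc9 was 0.23 higher in males (SE 0.059, limma adjusted p = 0.261) and 0.20 higher without that array. Both male arrays lay below all 4 female arrays for 2 Hox genes, 1 of them not dim, where this held for 15.1% of all genes and 21.8% of those that were not dim.

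Hoxc4, Hoxd3, Hoxb4 and Hoxd10 had sex differences of -0.14, -0.11, 0.018 and 0.0070. All 4 had the opposite sign without the male TP array, at 0.015, 0.093, -0.12 and -0.061. Hoxd13, a gene of digits named after its values were seen, had the largest positive sex difference, 0.43 (SE 0.16, limma adjusted p = 0.303), and 0.41 without that array.

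**Figure D3:**
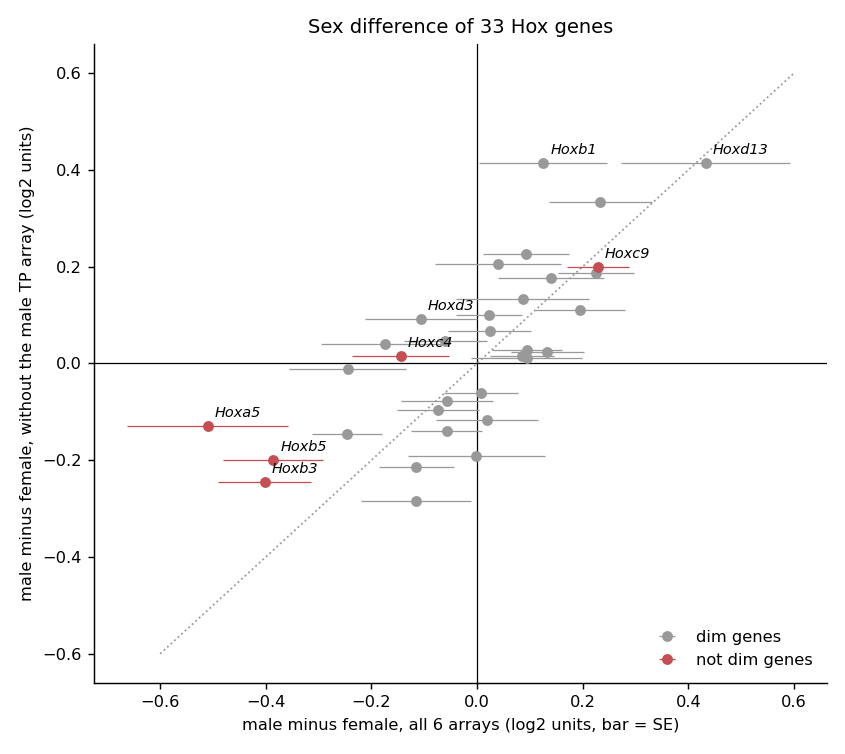
Male minus female difference in log2 units for the 33 Hox genes, over all 6 arrays (x axis, bar = SE) and without the male TP array (y axis). The dotted line marks equal values, red points are the 5 genes that are not dim. Hoxa5, Hoxb3 and Hoxb5 lie farthest left, at -0.51, -0.40 and -0.39, and well above the line, with -0.13, -0.25 and -0.20 on the y axis, while Hoxc9 and Hoxd13 stay close to it.

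Whether TP and vehicle differed by another amount in females than in males was tested as a contrast in a 4-group limma model, which gives each lone male array the spread of the female pairs. Of 33 Hox genes 0 passed an adjusted p of 0.05 (smallest 0.9999), and 4 (12.1%) had an unadjusted p under 0.05, against 4.42% of all genes. On the whole array 2 genes passed (0.011%). This contrast cannot be formed without the male TP array. It is built from the TP differences by which the family was chosen, so nothing is read from these counts.

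The 4 genes with small unadjusted p were Hoxa5, Hoxb1, Hoxd11 and Hoxb5. The female difference exceeded the male one by 0.76 for Hoxa5 (SE 0.13), by 0.58 for Hoxb1 (SE 0.12), by 0.47 for Hoxd11 and by 0.37 for Hoxb5 (SE 0.14), each with a limma adjusted p that did not pass. Each time the male difference was the more negative. Hoxb1, a gene of the fourth rhombomere, and Hoxd11, of the lumbar cord and kidney, are dim and named after their values were seen.

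The partners and regulators of Hox genes from fixed lists are given beside them. For these lists and those of regions and tissues below, the shares over all genes were 59.2% negative in females and 59.6% in males. For sex, 14% of all genes had an unadjusted limma p under 0.05. The 8 measured TALE cofactors (Pbx, Meis and Pknox genes) had median differences of -0.021 in females (5 negative) and -0.014 in males (5 negative). By limma 0 passed the threshold for sex and 0 for the difference between TP effects (0 at an unadjusted p under 0.05). For sex, 2 had an unadjusted p under 0.05, Meis1, at -0.38 (limma adjusted p = 0.261), and Pbx3, at -0.20. Meis1 was -0.22 without the male TP array.

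Retinoic acid, Cdx and hindbrain regulators numbered 20, with medians of -0.090 in females (13 negative) and -0.048 in males (12 negative). Aldh1a2, the main retinoic acid synthase of the embryo, had -0.21 in females and -0.066 in males, and Crabp1, which binds retinoic acid in the cytoplasm, -0.13 and -0.12. Of the Cdx genes, Cdx2 had -0.25 and -0.098, and Cdx4 had 0.20 and 0.084. The genes named here had the smallest limma p of the list for TP over both sexes, and both Cdx genes are dim. For sex and for the difference between TP effects 0 of 20 passed by limma, with 0 and 1 at an unadjusted p under 0.05.

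Polycomb and trithorax genes numbered 19, with medians of -0.0080 in females (10 negative) and -0.0094 in males (10 negative). Ring1, a ubiquitin ligase subunit, had -0.13 in females and -0.24 in males. Eed, a core subunit of the histone methyltransferase complex, had 0.21 and 0.086, and the Polycomb subunits Pcgf2 and Phc1 had -0.26 and -0.0094, and -0.077 and -0.16. These genes too had the smallest limma p of their list for TP over both sexes, and Pcgf2 is dim. By limma 0 passed for sex or for the difference between TP effects, with 4 and 2 at an unadjusted p under 0.05.

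Markers of hindbrain and cord outside the clusters were mostly lower with TP as well. Of 26 measured, 24 were negative in females (median -0.13) and 19 in males (median -0.22, 8 lower by at least 0.32). Of all genes 59.2% were negative in females and 59.6% in males, and 4.41% were lower by at least 0.32 in males. Their mean log2 value was 5.54 and 5.51 in vehicle females, 5.36 and 5.40 in TP females, 5.50 in the vehicle male and 5.31 in the TP male. Nkx6-1, of ventral hindbrain and cord, had -0.41 in females and -0.71 in males, Uncx -0.32 and -0.48, and Slc6a5, a transporter that marks glycinergic neurons, -0.38 and -0.47. These genes were named because they had the smallest limma p of the list for TP over both sexes, and Nkx6-1 and Uncx are dim. Other members differed, such as the dim Gata3, with -0.042 in females and 0.27 in males. For sex 0 of 26 passed by limma, with 9 at an unadjusted p under 0.05, where 14% of all genes were. This list was drawn up with such values known, and its part in the Hox values was not tested.

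Lists of other regions gave other values. Cerebellum markers had medians of -0.0074 in females (7 of 13 negative) and -0.0093 in males (7 of 13). Forebrain markers had -0.043 (12 of 18) and -0.018 (11 of 18), and midbrain markers -0.16 (10 of 12) and 0.036 (5 of 12). The midbrain median was thus negative in females as the Hox median was, and positive in the male pair where the Hox median was negative. For sex, 8 of 13 cerebellum, 3 of 18 forebrain and 1 of 12 midbrain markers had an unadjusted limma p under 0.05, and 0 passed. Small unadjusted p-values for sex were thus not particular to the hindbrain and cord list.

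Tissues that adjoin a dissected brain were looked at as well. Peripheral ganglia markers, some of which the hindbrain also expresses, had medians of -0.13 in females (8 of 8 negative) and 0.041 in males (3 of 8 negative). Skeletal muscle genes had -0.010 (5 of 10) and -0.036 (5 of 10), and cartilage, bone and meninges genes 0.090 (4 of 12) and -0.18 (8 of 12). For sex 0 genes of these 3 lists passed by limma, with 2, 1 and 3 at an unadjusted p under 0.05, and for the difference between TP effects 1 did, the bone gene Ibsp (limma adjusted p = 0.0102). Ibsp had 1.64 in females and -1.11 in males, and Dmp1, a mineralization gene named after its values were seen, 1.12 and -0.87. Both were higher in the TP females and lower in the TP male, while the Hox median was negative in both sexes. The part of these tissues in the Hox values was not tested.

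**Figure D4:**
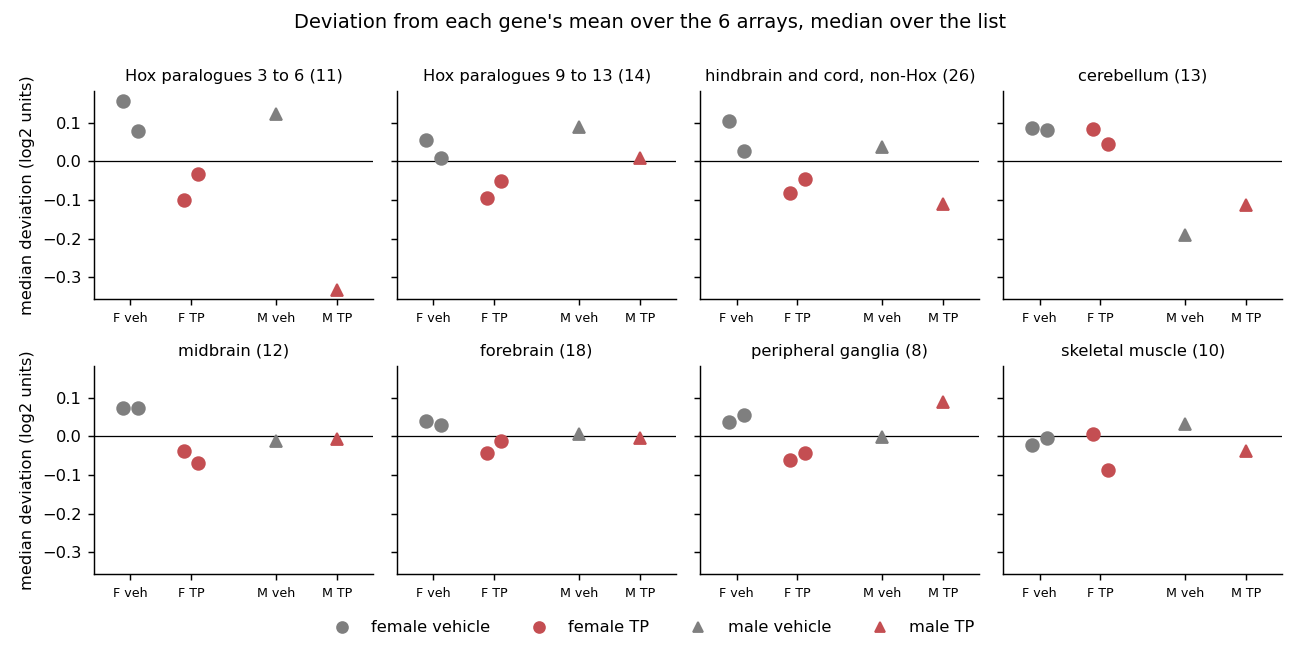
Median over each gene list of the deviation from the gene's mean over the 6 arrays (y axis, log2 units), per array, for 2 groups of Hox paralogues and 6 marker lists, with the number of measured genes in brackets. Points from left to right are female vehicle, female TP, male vehicle and male TP. Hox paralogues 1, 2, 7 and 8 are not shown. Of the Hox genes numbered 3 to 6, 4 of 11 are not dim, against 1 of 14 numbered 9 to 13. Hox paralogues 3 to 6 stand at 0.16 and 0.079 in vehicle females, -0.10 and -0.034 in TP females, 0.12 in the vehicle male and -0.33 in the TP male, while the cerebellum list (0.085 and 0.081, 0.082 and 0.045, -0.19 and -0.11) is lower in both males.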

How the data were processed

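The deposited values are log2 expression values of 45101 probe sets per array, made by the authors with RMA, per the submitters' processing notes (version not given in the sources used here). RMA normalizes between arrays, so array medians were alike (5.69 to 5.74). At most 215 probe sets had equal values on any pair of arrays. Names came from the platform annotation, with 34741 of 34945 single-gene probe sets found in RefSeq. Left out were 932 probe sets of several genes (3 of a pair of Hox genes), 9160 unnamed, 64 controls and 5 of Hox antisense genes.

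Two-sided fits with lmFit and eBayes (limma 3.58.1, R 4.3.3) used the brightest probe set of each of 18193 genes, with Benjamini-Hochberg adjustment over all of them and a threshold of 0.05. The fits were tested on simulated data. Named singly were Hox genes that were not dim, and up to 4 dim ones whose 3 TP and 3 vehicle arrays did not overlap. Members and lists were chosen with earlier results of these data known. Alternatives were other probe set rules, normalizations, variance models, a replicate block, arrays left out and a 1.5-fold rule. Figures used Python 3.11.15 and matplotlib 3.10.9.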

Additional observations from a re-analysis of the deposited data

Results flagged for a closer look

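For 5 of 33 Hox genes (15.2%), all dim, the female TP arrays lay on one side of the female vehicle arrays while the male TP array lay on the opposite side of the male vehicle array. The same held for 2088 of 18193 genes (11.5%). The difference was 0.17 in females and -0.41 in males for Hoxb1, a gene of the fourth rhombomere. It was -0.31 and 0.024 for Hoxd1, 0.088 and -0.065 for Hoxb7, -0.13 and 0.0085 for Hoxa9 and -0.076 and 0.12 for Hoxc10. With 1 male array per treatment these opposite directions have no replicate in males. The 5 genes were picked by the signs of the same differences that the contrast between TP effects compares, so its p-values are not read for them.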

How the results depend on the processing

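Under the settings tried, the Hox median stayed negative for TP in females, in males and over both sexes. With dim genes left out it was -0.34 over both sexes and -0.56 in males, and the median was -0.39 for sex and 0.32 for the difference between TP effects. Without the male TP array the sex median of the genes that were not dim was -0.13. Repeated quantile normalization gave -0.069 in females, -0.095 over both sexes and -0.030 for sex, and centring gave -0.073, -0.091, -0.061 in males and 0.067 for sex. The median difference between TP effects ranged from -0.072 to 0.14 with 1 female array left out. At 1.5-fold, 3 Hox genes in place of 10 were lower in males.

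Sex differences turned for Hoxb4 (-0.026) and Hoxd10 (-0.030) with repeated quantile normalization, and for Hoxc4 (0.015), Hoxd3 (0.093), Hoxb4 (-0.12) and Hoxd10 (-0.061) with vehicle arrays alone. Leaving out the male TP array gives the same estimate by construction, so these settings are 1 result. With 1 array left out they ranged from -0.30 to 0.015 for Hoxc4, -0.31 to 0.093 for Hoxd3, -0.12 to 0.15 for Hoxb4 and -0.061 to 0.075 for Hoxd10. The sign turned without the male TP array for all 4, and also without female vehicle array 1 (-0.0080) or TP array 1 (-0.037) for Hoxb4 and female vehicle array 2 (-0.016) or TP array 2 (-0.016) for Hoxd10. The cause was not tested.

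The second female arrays are labelled replicas of the first. Over 18193 genes the replica minus original differences of the vehicle females and of the TP females had a correlation of 0.11. Whether the replicas share a batch was not tested. With the replicate block 0 Hox genes passed for sex (7 at an unadjusted p under 0.05, smallest limma adjusted p 0.447), Hoxd10 turned to -0.046, and 0 passed for the difference between TP effects (6 at an unadjusted p under 0.05). With the intensity trend the smallest limma adjusted p was 0.0934 for sex and 0.0847 for the difference between TP effects, both for Hoxa5. Over all genes, 3 passed for sex, 10 with dim genes left out and 24 with the trend. The male comparison, and the difference between TP effects, could not be fitted without a male array. Low signal in 28 dim genes and 1 male array per treatment limit the values.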
